A study of Capra hircus with 3 samples.

Results

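The genes of the major histocompatibility complex (MHC) and of antigen presentation were measured by 38 of the 15008 non-control probes on an Agilent sheep array. The probes were taken by name, as those whose gene name starts with OVAR or whose description holds the words MHC, histocompatibility, beta-2-microglobulin, cathepsin S, invariant chain or transporter associated with antigen. By role they were 23 probes for class I heavy chains from 20 sequence records, 11 probes for class II chains from 10 records (6 for alpha and 5 for beta chains), 2 for beta-2-microglobulin and 1 for the invariant chain. The remaining probe, TC58015, was matched only by the words minor histocompatibility antigen and stands for signal peptide peptidase, a protease of the endoplasmic reticulum. No probe matched cathepsin S, the TAP transporter or the class II DM and DO chains by these words, and their probes were not analysed here.

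Skin was taken from 6 female Arbas Cashmere goats 2 years old, 3 kept under a short photoperiod and 3 under natural light. The short photoperiod goats grazed and drank outside for 7 hours a day and spent the remaining time in a dark shed at about 0.1 lux, and the natural photoperiod goats grazed in natural conditions. On each of the 3 arrays RNA of a short photoperiod goat (Cy5) was hybridised with RNA of a natural photoperiod goat of the same parent (Cy3), and the dyes were swapped on 0 arrays, which leaves any dye bias of a probe in its ratio. All arrays shared 1 slide and 1 scan. An array is also a goat pair and a hybridisation, and these cannot be told apart.

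Class I molecules consist of a polymorphic heavy chain bound to beta-2-microglobulin, are present on nearly all nucleated cells and show peptides from inside the cell to cytotoxic T cells. Class II molecules are made of an alpha and a beta chain, are found mainly on dendritic cells, Langerhans cells, macrophages and B cells, and show peptides from engulfed material to helper T cells. The invariant chain blocks the class II groove until the molecule reaches the endosome. Interferons raise both classes, and in the growing hair follicle the lower part is known for low MHC class I.

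The probes are 60 bases long and were designed on sheep records, many of them alleles of the same genes. The goats' own alleles were not measured, so the amount of a transcript and its match to a sheep probe cannot be told apart. Among the members, 22 pairs of probes, formed by 18 probes (14 of them class I), shared at least 20 bases in register at 85% identity or more, so these probes do not measure separate genes. The following pairs show how alike they are, written 5′ to 3′ as on the array, with capitals at the bases that differ between the probes of a pair within their shared stretch. The first is class I, with 4 differing bases in 60.
U03092: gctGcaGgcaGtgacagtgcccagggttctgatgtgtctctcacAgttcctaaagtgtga
OVAR: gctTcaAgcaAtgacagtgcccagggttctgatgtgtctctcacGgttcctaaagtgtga
The second is class I from alleles of 2 isolates, with 7 differing bases in 57.
EF489513: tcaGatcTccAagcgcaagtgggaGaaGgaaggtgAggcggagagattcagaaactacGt
EF489531: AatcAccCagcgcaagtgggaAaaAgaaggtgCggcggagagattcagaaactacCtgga
The third is class II DQ alpha, with 4 differing bases in 60, and holds the member with the lowest p.
OVAR-DQA1: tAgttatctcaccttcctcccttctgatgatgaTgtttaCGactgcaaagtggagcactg
DQA2 M93431: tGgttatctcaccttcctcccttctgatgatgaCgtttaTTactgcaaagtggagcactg
The last pair of sequences are the class I and class II beta probes EF489523 and DQ659127 whose ratios differed most between arrays within their kind.
EF489523: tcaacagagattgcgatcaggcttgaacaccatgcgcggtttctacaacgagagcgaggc
DQ659127: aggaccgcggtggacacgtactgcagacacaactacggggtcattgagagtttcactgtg

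The median intensity over all probes ranged from 4686 to 7193 in Cy5 and from 2746 to 3941 in Cy3, over local backgrounds of 38.5 to 42 and 23.5 to 25, and 0 spots were saturated. Both channels of 36 members stood well above background on all 3 arrays. The exceptions were the class I probes TC75272 and TC61505, whose records are named after a bovine non-classical and a pig class I antigen. TC75272 was well above background in Cy5 on 0 arrays and in Cy3 on 2. TC61505 was well above background in Cy5 on 1 array and in Cy3 on 2. Keratinocyte, fibroblast and hair shaft markers for the labelled tissue, skin, had 0 probes that were not well above background. Ratios below are log2 of short over natural photoperiod after normexp background correction and loess within each array, and levels are log2 values of each goat after normalization between arrays (Aquantile), to be compared only within a probe.

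None of the 38 members had an adjusted p under 0.05 in limma (0 of 38, lowest adjusted p 0.165, highest 0.973), while 1 of all 14977 tested probes did (0.00668%). Under the alternative settings, 0 to 2 members were called. At an unadjusted p under 0.05, 7 members were lower under the short photoperiod, 4 of class I and 3 of class II, against 9.35% of all tested probes. TC75272, which was not well above background, is among them. So are the OVAR-DQA1 and DQA2 probes that differ at 4 bases in 60. The mean log2 ratio was below 0 in 34 of 38 members (22 of 23 for class I and 8 of 11 for class II), where the share of all probes was 51.1%. It was at or below −1, a 2-fold lower mean, in 4 members, 3 of class I and 1 of class II (0.414% of all probes), and at or above 1 in 0 members (0.427% of all probes). In 8 members, TC75272 included, the ratio was below 0 on all 3 arrays (21.9% of all probes). The count of members with a 2-fold mean in either direction moved with the arrays used. It was 22 without replicate 1, 1 without replicate 2 and 3 without replicate 3. The last count includes the class II probe AY884017, whose mean was then higher, at 1.00. In bulk skin, fewer cells of a type and less RNA per cell cannot be told apart.

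**Figure D1:**
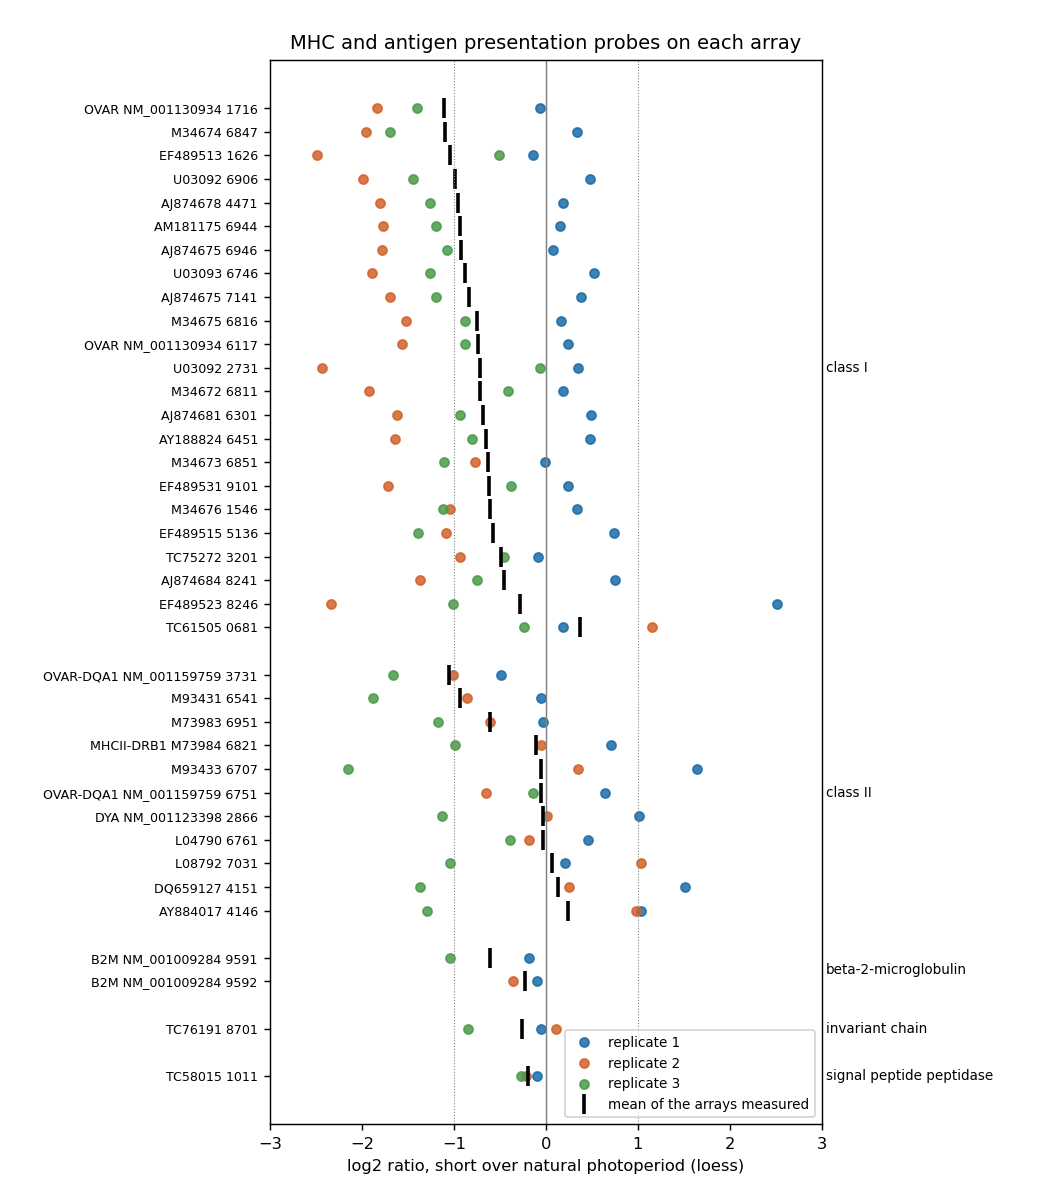
Each row is 1 probe, named by gene or record and the last 4 digits of its probe name. Circles give the log2 ratio of short over natural photoperiod on each of the 3 arrays, bars the mean, and dotted lines a 2-fold difference. Class I probes lie mostly near 0 on replicate 1 and below −1 on replicate 2. TC75272 and TC61505 were not well above background.

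The members varied between arrays far more than most probes did. The SD of the log2 ratio over the arrays had a median of 0.99 among members (1.07 for class I and 0.91 for class II), and of 0.20 among all tested probes. Of the members, 34 lay above the 90th percentile of all probes' SDs, among them 22 of 23 class I and 10 of 11 class II probes. The signal peptide peptidase probe, which is no MHC gene, had an SD of 0.09.

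Class I heavy chains were near or above 0 on replicate 1 and below 0 on the other arrays. The median log2 ratio of the 23 probes was 0.24 on replicate 1, −1.72 on replicate 2 and −1.02 on replicate 3. The ratio was above 0 in 19 probes on replicate 1, below 0 in 22 on replicate 2 and below 0 in 23 on replicate 3, and 18 probes had this order of signs. Replicate 2 gave the lowest ratio in 19 of 23 probes. The median of the means was −0.72, with −1.26 without replicate 1 and −0.32 without replicate 2, while the median over all tested probes was −0.01.

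The lowest mean of class I belonged to OVAR (NM_001130934, probe A_70_P001716), labelled only as an MHC class I antigen. Its level was 16.35, 15.58 and 15.82 in the short photoperiod goats of replicates 1, 2 and 3 and 16.42, 17.42 and 17.23 in the natural photoperiod goats. The groups did not overlap, although the goats of replicate 1 differed little. The log2 ratios were −0.06, −1.84 and −1.41, with a mean of −1.11 ± 0.93 (SD, n = 3) and an adjusted p in limma of 0.226, which ranged from 0.108 to 0.930 over the alternatives. The other OVAR probe (A_70_P016117) gave 0.24, −1.57 and −0.88. The probe of U03092 that differs from it at 4 bases gave 0.48, −1.99 and −1.45, so the 2 probes had the same signs on every array.

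M34674, a class I gene 3′ end, had levels of 12.50, 12.56 and 11.65 in the short photoperiod goats and 12.16, 14.51 and 13.35 in the natural photoperiod goats. Here the groups overlapped, since the natural photoperiod goat of replicate 1 was below 2 of the short photoperiod goats. The log2 ratios were 0.34, −1.95 and −1.70 (mean −1.10 ± 1.26, adjusted p in limma 0.299). EF489513, a class I allele, gave −0.14, −2.50 and −0.51 (mean −1.05 ± 1.27, adjusted p 0.319 in limma), and its natural photoperiod goats at 15.91 to 17.11 were all above the short photoperiod goats at 14.61 to 15.77. EF489531, which differs from it at 7 bases, gave 0.23, −1.72 and −0.38.

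Probes that share their target stretch gave ratios of the same sign on replicates 2 and 3, at differing closeness. The 6 overlapping probes of U03092, AM181175, OVAR, AJ874681, U03093 and AJ874675 spanned 0.15 to 0.53 on replicate 1, −1.99 to −1.57 on replicate 2 and −1.45 to −0.88 on replicate 3. The 4 overlapping probes of M34672, M34674, M34675 and M34676 spanned 0.16 to 0.34 on replicate 1, −1.95 to −1.04 on replicate 2 and −1.70 to −0.41 on replicate 3. EF489513 and EF489531 were 0.37, 0.78 and 0.13 apart on replicates 1, 2 and 3, and AJ874678 and AY188824 were 0.29, 0.16 and 0.46 apart. Of the 9 class I probes that overlap no other member, the 7 well above background spanned −0.06 to 2.51 on replicate 1, −2.44 to −0.77 on replicate 2 and −1.41 to −0.07 on replicate 3.

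EF489523 stood at the edge of that span. Its levels were 15.12, 12.80 and 14.23 in the short photoperiod goats and 12.61, 15.14 and 15.25 in the natural photoperiod goats, so each group held goats at both ends. The log2 ratios were 2.51, −2.34 and −1.02 (mean −0.28 ± 2.51), and its SD was at the 99.9th percentile of all tested probes. A second probe of U03092 (A_70_P002731) gave 0.35, −2.44 and −0.07. Those of AJ874684 were 0.75, −1.37 and −0.75, and those of EF489515 0.74, −1.09 and −1.39. M34673 was the measured class I probe least apart between arrays, with −0.01, −0.77 and −1.11 (adjusted p in limma 0.249), and its 2 groups of goats did not overlap (14.33 to 14.81 against 14.82 to 15.44). The remaining class I probes above background, those of AJ874678, AM181175, AJ874675, U03093, M34675, M34672, AJ874681, AY188824 and M34676, had means between −0.96 and −0.61. The ratios of the 2 probes that were not well above background are not read as changes.

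**Figure D2:**
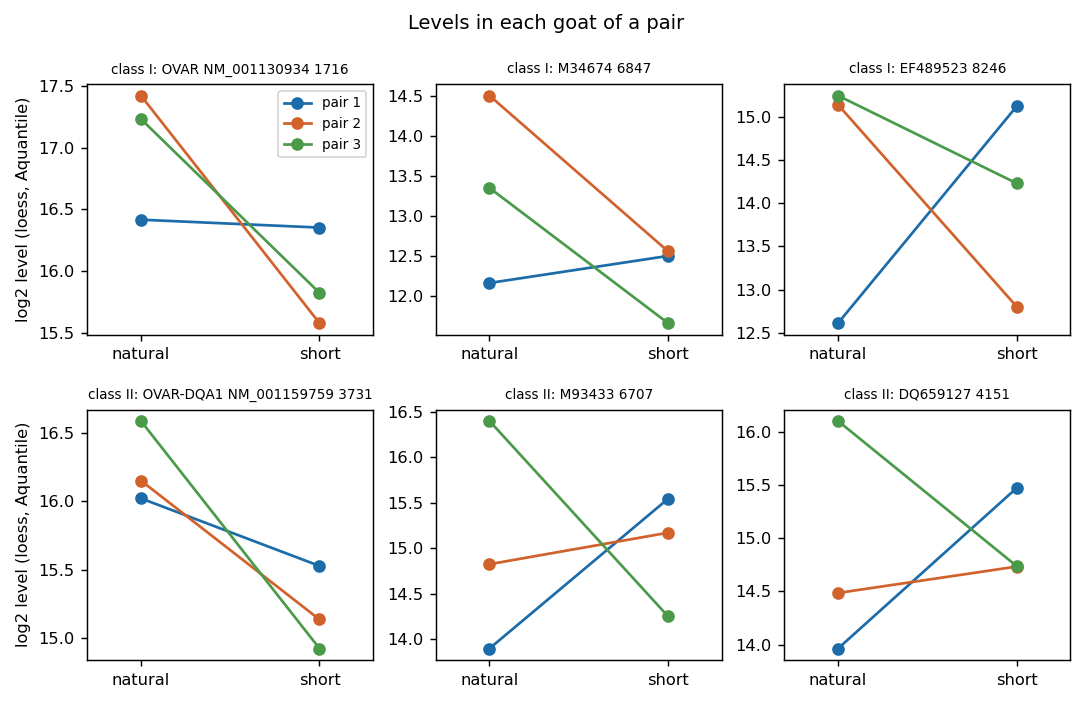
Lines join the goats of a pair, natural photoperiod on the left and short photoperiod on the right, with the log2 level on the vertical axis and a separate axis for each probe. In EF489523, M93433 and DQ659127 the pair of replicate 1 goes up and that of replicate 3 goes down.

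The spread among goats was wider in the natural photoperiod group. For class I probes the median range of the level was 1.33 among natural photoperiod goats and 0.66 among short photoperiod goats, and over all tested probes it was 0.48 and 0.42. The natural photoperiod goat of replicate 1 had the lowest level of its group in 22 of 23 class I probes, and that of replicate 2 the highest in 20, against 32.9% and 27.3% of all probes. Of the short photoperiod goats, that of replicate 1 was highest in 20 of 23 class I and 9 of 11 class II probes (42.8% of all probes). For class II the natural photoperiod goat of replicate 1 was lowest in 9 of 11 probes and that of replicate 3 highest in 9 (33.1% of all probes), with a median range of 1.26 against 0.72 among the short photoperiod goats. Every short photoperiod goat was below every natural photoperiod goat in 9 of 38 members, 4 of class I, 3 of class II and both beta-2-microglobulin probes, against 7.28% of all tested probes. One of these class I probes, TC75272, was not well above background, and the beta-2-microglobulin probes had 2 goats a group each.

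Beta-2-microglobulin, the light chain of class I, was measured on 2 arrays by each of its 2 probes, because a spot of each was an outlier. The probes are shifted by 1 base and share the other 59. Probe A_70_P039591 gave log2 ratios of −0.18 on replicate 1 and −1.04 on replicate 3 (mean −0.61, n = 2, adjusted p in limma 0.308). Probe A_70_P039592 gave −0.10 on replicate 1 and −0.35 on replicate 2 (mean −0.22, n = 2, adjusted p 0.462). This mean was −0.57 with outlier spots kept and −0.45 in the authors' value table. On replicate 2, where the median of the heavy chains was −1.72, beta-2-microglobulin was thus near −0.35 on the only probe measured there. Loess took 1.10 from this value and a median of 0.71 from the class I ratios. With median centring it was 0.75, against a class I median of −0.95 on that array.

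Class II chains followed another order of arrays. Their median log2 ratio was 0.65 on replicate 1, −0.06 on replicate 2 and −1.18 on replicate 3, with 8 of 11 probes above 0 on replicate 1, 6 below 0 on replicate 2 and 11 below 0 on replicate 3. Replicate 3 gave the lowest ratio in 10 of 11 probes. The median of the means was −0.05, and it was −0.56 without replicate 1, −0.14 without replicate 2 and 0.32 without replicate 3.

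Among the alpha chains, the DQ alpha probe of OVAR-DQA1 (NM_001159759, probe A_70_P053731) had the lowest adjusted p of all members. Its level was 15.53, 15.14 and 14.92 in the short photoperiod goats and 16.02, 16.15 and 16.59 in the natural photoperiod goats, without overlap. The log2 ratios were −0.49, −1.02 and −1.67 (mean −1.06 ± 0.59, n = 3), with an adjusted p in limma of 0.165 and a range of 0.0565 to 0.410 over the alternatives. The DQA2 probe M93431, which differs at 4 bases, gave −0.06, −0.86 and −1.88 (adjusted p in limma 0.258) and its groups did not overlap either. DR alpha (M73983), the alpha chain known to vary least between individuals, gave −0.03, −0.61 and −1.18 (mean −0.61 ± 0.57, adjusted p in limma 0.264), with short photoperiod goats at 14.91 to 15.20 and natural photoperiod goats at 15.23 to 16.09.

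Probes of the same DQ alpha genes did not give the same values. A second OVAR-DQA1 probe (A_70_P016751) gave 0.65, −0.66 and −0.14, with a mean of −0.05. The other DQA2 record, M93433, had levels of 15.54, 15.17 and 14.25 in the short photoperiod goats and 13.89, 14.82 and 16.40 in the natural photoperiod goats. The natural photoperiod goats of replicates 1 and 3 lay on either side of all short photoperiod goats. Its log2 ratios were 1.65, 0.35 and −2.15. DYA, the alpha chain of the ruminant-specific DY molecule, gave 1.02, 0.01 and −1.14.

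The 5 beta chain probes had means near 0, from −0.11 to 0.24, and adjusted p-values in limma of at least 0.817. All 5 were above 0 on replicate 1 and below 0 on replicate 3. The probes for DRB1, the most polymorphic class II gene, gave 0.71, −0.06 and −0.99 (M73984), 1.51, 0.25 and −1.37 (DQ659127), and 1.03, 0.98 and −1.30 (AY884017). The DRB3 record L04790 gave 0.46, −0.18 and −0.39, and DQB1 (L08792) gave 0.20, 1.03 and −1.04. As medians of the means, alpha chains were at −0.33 and beta chains at 0.06.

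The invariant chain (TC76191, a record named after the rat class II gamma chain) gave −0.06, 0.11 and −0.85. Its mean was −0.27 ± 0.51, with an adjusted p in limma of 0.532. Like class II, it was lowest on replicate 3. Signal peptide peptidase (TC58015) gave −0.09, −0.22 and −0.27, with an adjusted p of 0.360 in limma.

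Set against each other array by array, the class I median minus the class II median was −0.40 on replicate 1, −1.66 on replicate 2 and 0.16 on replicate 3. Class I was thus the lower class on 2 arrays and the higher one on the third, and the mean difference of −0.63 was smaller than its SD of 0.93 (n = 3). Taken as a difference between the medians of the means it was −0.67, with −0.18 without replicate 2 and −1.01 without replicate 3. On replicate 2, 20 class I probes and 1 class II probe were at or below −1, and on replicate 3 this was so for 12 class I and 8 class II probes. The share of all tested probes at or below −1 was not taken for single arrays. Their quartiles were −0.17 and 0.17 on replicate 2 and −0.25 and 0.23 on replicate 3. No test is given because the members were chosen with earlier results known.

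**Figure D3:**
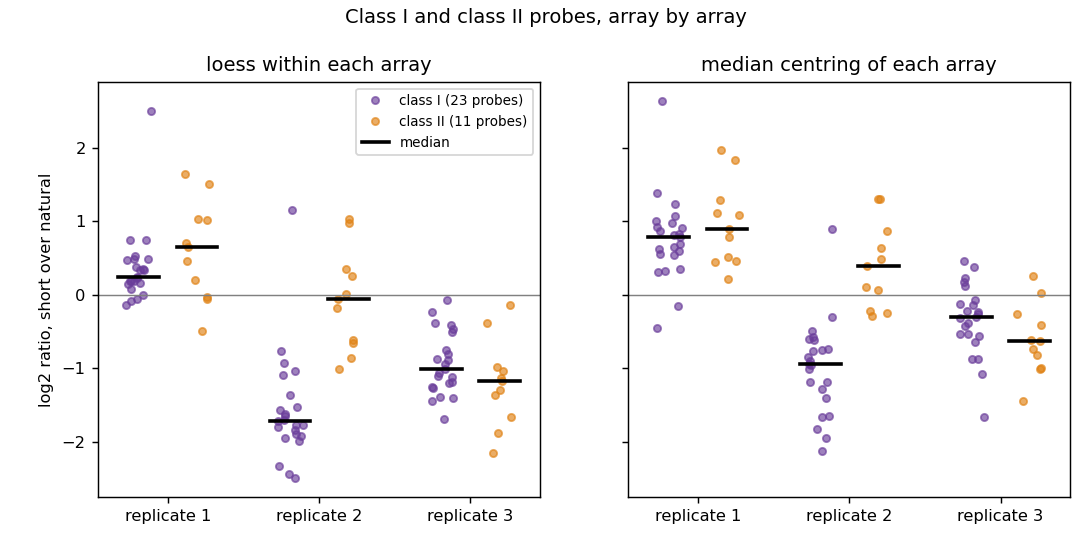
Points are probes, with the log2 ratio of short over natural photoperiod on the vertical axis, for class I and class II on each array, and bars are medians. On the left ratios were normalized by loess and on the right each array was only centred on its median. Class I lies below class II on replicates 1 and 2 and above it on replicate 3 in both panels.

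The values of most members moved with the intensity correction, and most members were bright probes. Class I probes had a median brightness at the 96.5th percentile and class II at the 92.3rd, and loess took 0.46, 0.71 and 0.77 from the class I ratios of replicates 1, 2 and 3 (medians) and 0.32, 0.52 and 0.70 from those of class II. With median centring in its place, the median of the means was −0.19 for class I, with 19 probes below and 4 above 0, and 0.38 for class II, with 2 below and 9 above. The OVAR probe A_70_P001716 moved from −1.11 to −0.046 and the OVAR-DQA1 probe A_70_P053731 from −1.06 to −0.28. Both beta-2-microglobulin probes turned to 0.44 and 0.78, and the second was then called with an adjusted p of 0.0427 in limma. With median centring 1880 of all 14977 tested probes were called. The class I minus class II difference changed less, to −0.12, −1.34 and 0.34 on the 3 arrays. M34674, a dimmer probe from which loess took −0.02, 0.12 and 0.04, gave 0.32, −1.83 and −1.66 with median centring, as low on replicates 2 and 3 as with loess.

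**Figure D4:**
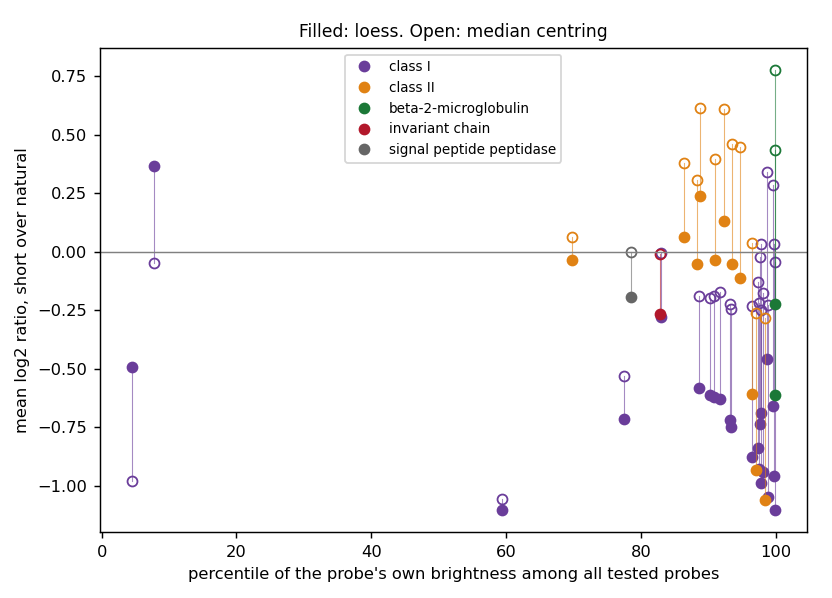
Each member is shown by its mean log2 ratio on the vertical axis after loess (filled) and after median centring (open), joined by a line, against the percentile of its brightness among all tested probes. Loess lowered the bright probes and raised the 2 dim ones at the left, and with median centring 9 of 11 class II probes and both beta-2-microglobulin probes lie above 0.

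Other genes of antigen presentation, from a list of 29 genes of which 12 had 20 probes, had mean ratios below 0 in 18 of 20 probes, with a median of −0.39 and 0 calls (8 at an unadjusted p under 0.05, all lower, where 9.35% of all tested probes were). Their array medians were −0.18, −0.14 and −0.92, so replicate 3 was lowest, as for class II. The immunoproteasome subunits PSMB8 and PSMB9, which cut peptides for class I, gave −0.23, −0.58 and −1.19 and −0.13, −0.45 and −1.20. Legumain, an endosomal protease of the class II route, gave −0.86, −0.53 and −0.57 on one probe and −0.93, −0.54 and −0.73 on the other (adjusted p in limma 0.155 for the second). CD1B, a lipid-presenting molecule of dendritic cells, was at 0.29, 0.17 and −1.54 on 1 of its 3 probes. Another CD1B probe, counted among the 20, was not well above background.

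Interferon genes had 9 probes for 8 of 22 listed genes, with array medians of −0.58, −0.04 and −1.23. The 2 IFNG probes among them fell short of well above background in Cy5 on at least 1 array. ISG17 and MX1, both interferon targets, gave −2.56, −0.07 and −4.56 and −1.21, 0.73 and −2.99. Replicate 2, on which class I was lowest, had interferon targets near or above 0, and replicate 3, on which class II was lowest, had them at their lowest. The part of interferon in the MHC ratios was not tested.

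Markers of immune cells had 0 calls, where 1 of all 14977 tested probes was called, and most had a mean ratio below 0. At an unadjusted p under 0.05 in limma, 9 of 9 monocyte and macrophage, 5 of 10 T cell and 2 of 2 leukocyte integrin probes were lower. This was so for 0 dendritic cell and 0 B cell probes, and for 9.35% of all tested probes. All 9 probes of monocyte and macrophage genes (5 of 12 listed genes) had a mean below 0, with a median of −0.37, and the summed level was 96937 to 110417 in the short photoperiod goats and 125077 to 172098 in the natural photoperiod goats, in arbitrary units. For T cells, 8 of 10 probes were below 0 (6 of 10 genes, median −0.33), with sums of 54543 to 68645 and 78733 to 86864. The 2 CD4 probes among these 10 were not well above background. The 2 probes of the leukocyte integrin ITGB2 had array medians of −0.42, −0.69 and −0.68. Dendritic cells were represented by CD1B alone (3 probes, 1 not well above background, array medians 0.29, 0.21 and −1.54). B cells were represented by CR2 alone (2 probes, −0.27, −0.06 and 0.18), so the main class II-bearing cells of skin had few markers. Sums overlapped between the groups for ITGB2 (17633 to 30015 against 28361 to 40304), CD1B (21573 to 46475 against 30310 to 62961) and CR2 (4382 to 5858 against 5048 to 6168). Among single probes, 7.28% of all tested had every short photoperiod goat below every natural photoperiod goat. No such share was taken for sums of a list. The monocyte and leukocyte lists had medians below 0 on replicate 1 (−0.49 and −0.42), where the medians of class I and class II were above 0. On that array 11 of the 38 members were below 0, among them OVAR-DQA1 (A_70_P053731) at −0.49. The part of immune cell number in the MHC ratios was not tested.

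Markers of other skin cells had 0 calls too. The 3 hair shaft keratin probes had a median of 1.19 (sums of 200103 to 220397 against 58929 to 123423), and the 3 tested keratinocyte probes were above 0 with a median of 0.91. Of the 7 fibroblast probes, 5 were below 0 with a median of −0.25. The fibroblast sums overlapped between the groups (161560 to 192920 against 149623 to 211869). The 3 endothelium probes (2 of 6 listed genes) were below 0 with a median of −0.66 and array medians of −0.88, −0.83 and −0.26. Their sums were 14598 to 16013 in the short photoperiod goats and 18928 to 25203 in the natural photoperiod goats. No share over all probes was taken for sums of a list, so the separation of hair shaft and endothelium sums is not read as a result. The keratinocyte array medians of 1.33, 1.12 and 0.26 had the same order as those of class II. So did those of the T cell list (−0.18, −0.38 and −0.48) and of CD1B, so this order is not particular to keratinocytes. The keratinocyte median of replicate 1 also holds KRT5 (1.35), measured on that array only. The tested keratinocyte probes stood for KRT14 and TP63 alone. The part of these cells in the MHC ratios was not tested.

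**Figure D5:**
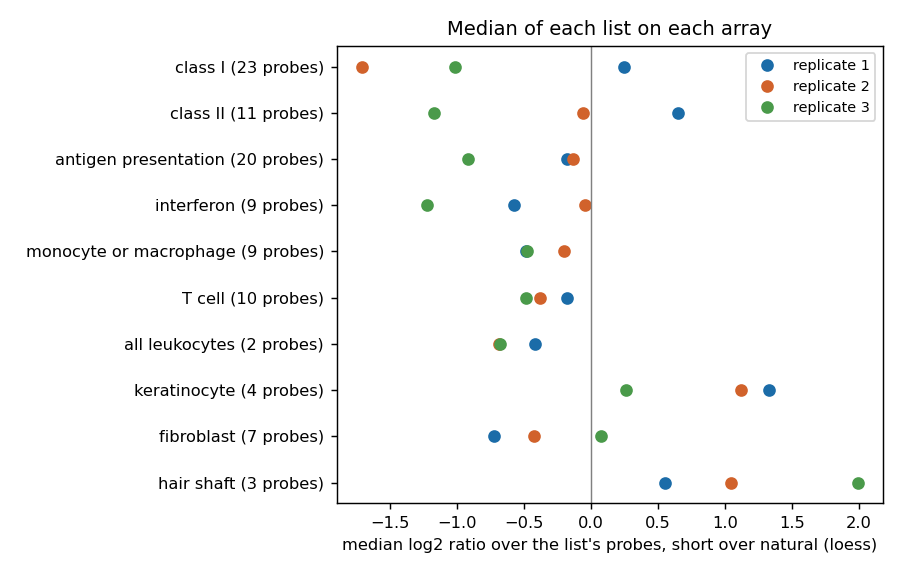
Points give the median log2 ratio over the probes of a list on each array, on the horizontal axis. Class I was lowest on replicate 2, while class II, the antigen presentation and the interferon genes were lowest on replicate 3.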

How the data were processed

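The authors hybridised skin RNA of 3 goat pairs to 3 arrays and deposited Feature Extraction 10.7.3.1 files. The mean and background intensity of each spot in these files, as deposited, is not normalized. The deposited log10 ratio is the authors' own, from processed signals. The deposited value table holds log2 ratios: 99.95% to 99.97% of the probes lay within 0.01 of that log10 ratio turned to log2, Cy5 over Cy3, and its column medians were 0.0082, 0.0012 and 0.018.

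Background was corrected with normexp (offset 50) and ratios were normalized by loess within arrays (limma 3.58.1, R 4.3.3). Control spots and outlier-flagged spots (38, 65 and 91 non-control spots on replicates 1, 2 and 3) had weight 0 and were left out. Probes with at least 2 arrays (14977) were tested against 0 by lmFit and eBayes with Benjamini-Hochberg adjustment. The paper states lowess and a 2-fold rule, with no test for 3 arrays. The pairing of goats comes from the paper, and each array is 1 pair. The number of arrays limits the precision: with 3 of them the smallest two-sided p by signs is 0.25. All members are named, and other genes come from lists written by role. The members, lists and tests were chosen with earlier results of these data known. The test was checked on simulated data whose changes were larger, and SDs smaller, than those of most members. That check therefore does not show what the test can detect among the members. The array annotation gives records without goat genome positions. Genes were matched by name, so a gene counted as absent from a list may have a probe under another name.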

Additional observations from a re-analysis of the deposited data

How the results depend on the processing

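The alternatives were no background correction, normexp without an offset, Feature Extraction's log ratio, median centring, only well measured probes, flagged spots kept, the value table, each array left out, eBayes with trend and robust, and the separate channels with and without the pairing. The number of members past an adjusted p of 0.05 was 0, and 2 with median centring, where 1880 of all tested probes were called (beta-2-microglobulin A_70_P039592 at 0.78 and TC75272, not well above background). The number with a 2-fold mean in either direction, 4, was 1 with median centring, 5 with flagged spots kept and 1 to 22 with an array left out. With the channels taken as unpaired samples (no replicate block) it stayed 4 and 0 members were called.

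Means turned sign with median centring for B2M (0.44 and 0.78), AJ874678 (0.035), AJ874681 (0.035), AY188824 (0.29), AJ874684 (0.34), TC61505 (−0.047), M73983 (0.037), M73984 (0.45), M93433 (0.46), OVAR-DQA1 A_70_P016751 (0.31), DYA (0.063) and L04790 (0.40). M93433 was at 0.015 with Feature Extraction's log ratio and at 0.015 in the value table. With 1 array left out, ranges that crossed 0 were −1.26 to 0.14 for U03092 A_70_P002731, −1.68 to 0.75 for EF489523, −0.026 to 0.67 for TC61505, −0.52 to 0.32 for M73984, −0.90 to 1.00 for M93433, −0.40 to 0.25 for OVAR-DQA1 A_70_P016751, −0.56 to 0.51 for DYA, −0.28 to 0.14 for L04790, −0.42 to 0.62 for L08792, −0.56 to 0.88 for DQ659127, −0.16 to 1.00 for AY884017 and −0.45 to 0.025 for TC76191. Apart from what the alternatives do by their construction, the cause was not tested.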
